A study of Mus musculus with 3 samples.

Results

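The 9 genes described here encode the peroxisome proliferator-activated receptors Ppara, Ppard and Pparg, the coactivators Ppargc1a and Ppargc1b, the receptor Esrra, the transcription factor Creb3l3 and the lipins Lpin1 and Lpin2. They were taken by symbol from the platform annotation, out of 18193 genes that had a probe set naming 1 gene only. Together they were read by 21 such probe sets, the brightest by mean over the 3 arrays standing for each gene, and all 9 genes passed the filter on dim genes.

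Livers of 3 mice on a mixed background, 3 months old, were profiled with 1 array each, 1 week after an intraperitoneal injection of 400 microL of adeno-associated virus of serotype 8. Control virus (MUP-EGFP-AAV8, n = 2 mice) carried EGFP and Cre virus (MUP-iCre-AAV8, n = 1 mouse) carried the iCre recombinase, which cuts out floxed DNA; the prefix MUP is not spelled out in the labels. HNF4alpha, encoded by Hnf4a, is a nuclear receptor on which much of hepatocyte gene expression depends. In the series design the mice of both viruses carry a floxed Hnf4a gene. The sample labels instead give the genotype as wild type for the control livers and as HNF4alpha knockout for the Cre liver, so virus and genotype cannot be told apart if the labels hold. Neither sex nor feeding state at harvest is given in the sources used here.

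Values are log2 expression after RMA, the scale on which 1 unit is a 2-fold difference. A difference is Cre minus the control mean, with the moderated standard error from limma (SE). Genes are said to have risen or fallen where the p value from limma, adjusted by the Benjamini-Hochberg method over all 12735 fitted genes, was under 0.05. Cre virus was measured in 1 mouse, whose spread was assumed to be that of the controls. Medians per array lay between 4.15 and 4.18. All 4 probe sets of Hnf4a read lower under Cre virus than in either control, by 2.27-fold at probe set 1421983_s_at (7.69 and 7.72 against 6.52) and by 1.47-fold at the brightest, 1427001_s_at (adjusted p = 0.0401, and under 0.05 in 5 of 8 other settings). The hepatocyte markers Alb (14.75 and 14.72 against 14.62) and Ttr (14.57 and 14.63 against 14.50) were bright in every liver, while Apoa2 (-1.81 ± 0.08 SE) and Serpina1b (-1.42 ± 0.08 SE), also on the hepatocyte list of 8 fitted genes, fell. Cps1 (0.33), Ahsg (0.28), Fgb (0.16) and Apoa1 (0.09), on the same list, were above both controls. Of the 8 genes 4 were above both controls and 4 below both, beside 49.7% and 33.6% of all fitted genes. The list median was -0.005. In whole liver RNA, fewer cells of a type and less RNA per cell cannot be told apart.

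PPARs are nuclear receptors that bind fatty acids and related lipids and act on DNA as heterodimers with retinoid X receptors. PPARalpha is the main form in hepatocytes, where it switches on fatty acid oxidation and ketone body synthesis in fasting, whereas PPARgamma drives fat storage and is best known from adipocytes. The PGC-1 coactivators, encoded by Ppargc1a and Ppargc1b, dock on PPARs, on the estrogen-related receptor ERRalpha and on HNF4alpha itself, and lipin 1 can join PGC-1alpha and PPARalpha in the nucleus besides its work as a phosphatidate phosphatase.

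The start regions of 8 of the 9 genes were found in RefSeq (assembly GRCm38.p6) as 13 windows of 300 bases, from 250 bases before to 50 bases after each start; Ppargc1b was not among them. Windows of 3 genes are printed 5′ to 3′ on the gene's strand because 2 of them belong to members at least 2.2-fold lower in the Cre liver, Ppara (chr15:85735526-85735825, plus strand) and Lpin1 (chr12:16610917-16611216, minus strand), and the other to Ppargc1a (chr5:51567676-51567975, minus strand), a coactivator whose brightest probe set lay between the controls. Capitals mark 1 of the hexamers searched on both strands, AGGTCA, the core of many nuclear receptor sites, and TGACGT, the core of the cAMP response element; the letters CAAAGTCCA of HNF4alpha sites were searched as well.
Ppara: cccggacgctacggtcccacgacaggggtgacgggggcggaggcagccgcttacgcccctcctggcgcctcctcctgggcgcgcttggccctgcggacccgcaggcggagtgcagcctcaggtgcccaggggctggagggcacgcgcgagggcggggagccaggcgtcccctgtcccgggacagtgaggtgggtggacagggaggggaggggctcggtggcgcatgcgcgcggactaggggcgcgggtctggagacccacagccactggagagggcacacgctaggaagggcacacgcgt
Lpin1: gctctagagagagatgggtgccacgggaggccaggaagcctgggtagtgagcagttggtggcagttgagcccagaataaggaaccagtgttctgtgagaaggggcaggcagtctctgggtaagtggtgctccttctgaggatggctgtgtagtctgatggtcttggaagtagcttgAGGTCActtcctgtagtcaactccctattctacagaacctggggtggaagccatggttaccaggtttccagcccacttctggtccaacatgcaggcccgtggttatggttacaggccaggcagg
Ppargc1a: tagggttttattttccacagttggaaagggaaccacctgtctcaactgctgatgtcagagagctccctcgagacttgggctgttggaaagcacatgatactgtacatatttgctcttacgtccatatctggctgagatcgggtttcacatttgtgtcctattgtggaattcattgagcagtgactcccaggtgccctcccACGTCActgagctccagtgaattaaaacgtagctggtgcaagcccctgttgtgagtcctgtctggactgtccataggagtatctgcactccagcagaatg
AGGTCA was found once in the Lpin1 window, starting at -74 from the start site, and not in that of Ppara. In Ppargc1a the cAMP element core lay on the other strand (ACGTCA at -50). AGGTCA was present in 4 of the 13 member windows (Lpin1, Creb3l3 and 2 starts of Pparg) against 16.3% of all 32851 promoter windows, and the cAMP element core in 1 of 13 against 7.51%. CAAAGTCCA was in none of the 13 and in 0.475% of all windows. No match overlapped another. The windows also differed in base composition: the Ppara window held 74.7% G and C and 30 CpG pairs, more CpG than 88.3% of all windows, whereas that of Lpin1 held 55.3% and 2, and that of Ppargc1a 48.7% and 5. A match is a description of the letters and says nothing of binding.

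Among the 3 receptors, Ppara was the only one at least 2-fold away from both controls. Ppara was at 9.26 and 9.96 in the control livers and at 8.03 in the Cre liver. The Cre value lay below both, and the controls themselves differed by 0.70, more than in 97.9% of fitted genes. The gene was 2.98-fold lower (-1.58 ± 0.32 SE), with an adjusted p of 0.054 that missed the threshold. Across 8 other settings that p lay between 0.00713 and 0.0928 and was under 0.05 in 4, among them the mean of the gene's probe sets (-1.42, adjusted p = 0.0311).

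The other Ppara probe sets went the same way. Probe set 1439675_at was at 8.95 and 9.37 in the control livers and 7.89 in the Cre liver, and 1457721_at was at 8.49 and 8.88 against 7.28. Each of the 3 probe sets was therefore at least 1 log2 unit below both controls, and each was higher in control 2 than in control 1. With every probe set tested on its own over 21748 probe sets, 1457721_at passed (-1.40 ± 0.21 SE, adjusted p = 0.042) while 1439675_at (adjusted p = 0.0519) and 1449051_at, which stands for the gene (adjusted p = 0.0721), did not.

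Ppard, the receptor expressed across most tissues, was dim and its probe sets disagreed. Probe set 1439797_at was at 4.61 and 4.74 in the control livers and 5.06 in the Cre liver, above both (0.39 ± 0.18 SE, adjusted p = 0.223). The other, 1425703_at, was at 4.32 and 4.28 against 4.01, below both (-0.29). Neither passed, and their mean differed by 0.05. A further probe set that lists Ppard together with a second gene stayed between 5.08 and 5.09 on the 3 arrays.

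Pparg had 1 probe set, at 5.01 in control 1, 5.91 in control 2 and 4.91 in the Cre liver. The Cre value was 0.10 below the lower control, and the gap of 0.90 between the controls was wider than in 99.0% of fitted genes. The difference did not pass (-0.55 ± 0.41 SE, adjusted p = 0.422); without control 2 it was -0.10, and without control 1 the Cre liver was 1 log2 unit lower.

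Of the PGC-1 coactivators, Ppargc1b fell and Ppargc1a did not pass; the difference between them was not tested. Ppargc1b, the PGC-1beta gene, was at 8.23 and 7.77 in the control livers and at 6.58 in the Cre liver, below both by more than 1 log2 unit. It fell 2.67-fold (-1.42 ± 0.24 SE, adjusted p = 0.0373). The single probe set of Ppargc1b leaves no other to compare, and the call was lost in 3 of 8 other settings, with adjusted p values of 0.0506 without the intensity trend, 0.0662 without the filter and 0.0529 without shared or mixed probe sets.

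Ppargc1a, the PGC-1alpha gene, is induced by fasting and glucagon. At its brightest probe set, 1460336_at, the controls were at 7.67 and 6.92 and the Cre liver at 7.39, between them (0.10 ± 0.34 SE, adjusted p = 0.866; 0.47 without control 1, -0.27 without control 2 and -0.012 after quantile normalization). The other 4 probe sets were above both controls in the Cre liver, against 48.3% of all fitted probe sets. Of these, 1434100_x_at was at 6.16 and 5.66 in the control livers and 6.92 in the Cre liver (1.01 ± 0.26 SE), and 1434099_at was at 6.15 and 5.35 against 6.71 (0.96 ± 0.38 SE). None passed on its own (lowest adjusted p = 0.106), and all 5 read higher in control 1 than in control 2. The gene's difference was 0.62 as the mean of probe sets and 0.10 at the brightest. Where these probe sets lie along the transcript was not analysed here.

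Esrra, which encodes ERRalpha, an orphan nuclear receptor that acts with PGC-1 on mitochondrial genes, lay within the controls. It was at 6.87 and 6.51 in the control livers and 6.57 in the Cre liver (-0.12 ± 0.21 SE, adjusted p = 0.737; 0.06 without control 1). The dimmer probe set 1442864_at was likewise between the controls, at 4.77 and 4.52 against 4.72.

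Creb3l3 encodes a transcription factor held in the endoplasmic reticulum of hepatocytes and released by proteolysis. Its single probe set was at 10.15 and 10.32 in the control livers and 9.69 in the Cre liver, below both. The controls differed by 0.17 only, yet the 1.46-fold difference (-0.55 ± 0.13 SE) did not pass (adjusted p = 0.0736), and it passed in 1 of 8 other settings (adjusted p = 0.0263 after quantile normalization).

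The lipins turn phosphatidate into diacylglycerol. Lpin1 was at 10.42 and 10.57 in the control livers and 9.35 in the Cre liver at its brightest probe set, 1426516_a_at. At 1418288_at the values were 10.24 and 10.11 against 8.99. Both probe sets were below both controls by more than 1 log2 unit, while the controls lay within 0.15 of each other at each. Lpin1 fell 2.20-fold (-1.14 ± 0.12 SE, adjusted p = 0.0159), and its adjusted p stayed between 0.00152 and 0.0336 over 8 other settings at gene level. Tested singly, both probe sets passed (adjusted p = 0.0251 and 0.0237).

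Lpin2 did not pass. Its brightest probe set, 1452836_at, was at 10.31 and 10.65 in the control livers and 10.39 in the Cre liver, between them (-0.09 ± 0.18 SE, adjusted p = 0.76; 0.08 without control 2). Probe set 1452837_at was 0.08 above the higher control, and 1460290_at (7.16 and 7.48 against 6.94) and 1446316_at (6.48 and 7.06 against 6.37) were below both. None of the 4 passed. The difference between Lpin1 and Lpin2 was not tested. The third lipin, Lpin3, was under the filter value of 3.77 in all 3 livers.

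**Figure D1:**
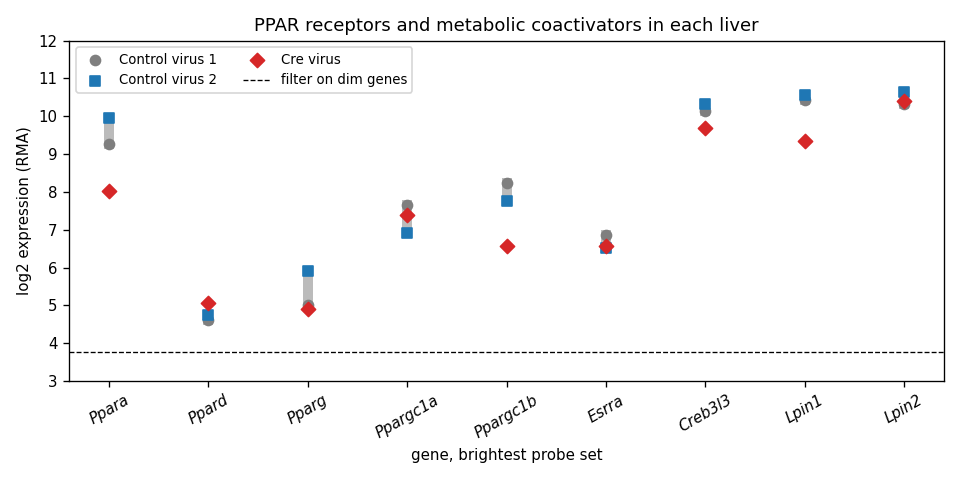
Log2 expression (vertical axis) of the brightest probe set of each of the 9 genes (horizontal axis) in the 2 control livers (circle and square, joined by a grey bar) and the Cre liver (diamond); the dashed line is the filter value of 3.77. The diamond lies below both controls for Ppara, Pparg, Ppargc1b, Creb3l3 and Lpin1, above both for Ppard and between them for Ppargc1a, Esrra and Lpin2.

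Across the 9 genes, 2 fell (Ppargc1b and Lpin1) and none rose by limma's adjusted p, where 5.21% of all fitted genes fell and 6.71% rose. At an unadjusted p under 0.05, 4 of the 9 passed by limma, all lower (Ppara, Ppargc1b, Creb3l3 and Lpin1). Of all fitted genes 31.2% passed so in either direction, 10.8% lower and 20.4% higher. By size alone, 3 of the 9 (Ppara, Ppargc1b and Lpin1) were at least 1 log2 unit below both controls, against 3.72% of fitted genes, and none was that far above both, against 3.67%. By any amount 5 were below both controls (33.6% of fitted genes) and 1, Ppard, above both (49.7%). Of the 21 probe sets 3 passed when tested singly, 2 of Lpin1 and 1 of Ppara, all lower, where 3.71% of probe sets fell and 3.69% rose. In the order of differences over all fitted genes, Ppara stood at rank 314 from the lowest, Ppargc1b at 355 and Lpin1 at 463.

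**Figure D2:**
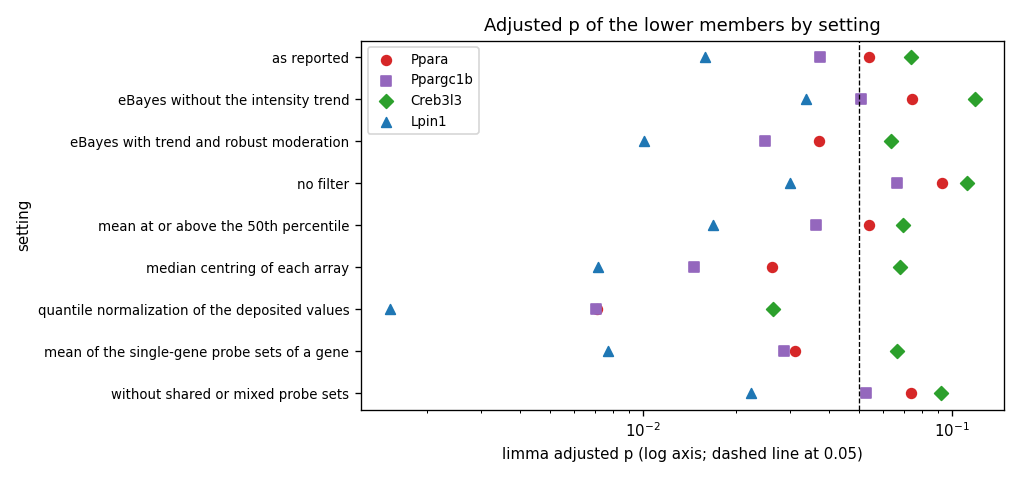
Adjusted p from limma (horizontal log axis, dashed line at 0.05) for Ppara (circles), Ppargc1b (squares), Creb3l3 (diamonds) and Lpin1 (triangles) in the reported fit and 8 other settings (vertical axis). The triangles lie left of 0.05 in every setting, while the other 3 genes cross the line.

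**Figure D3:**
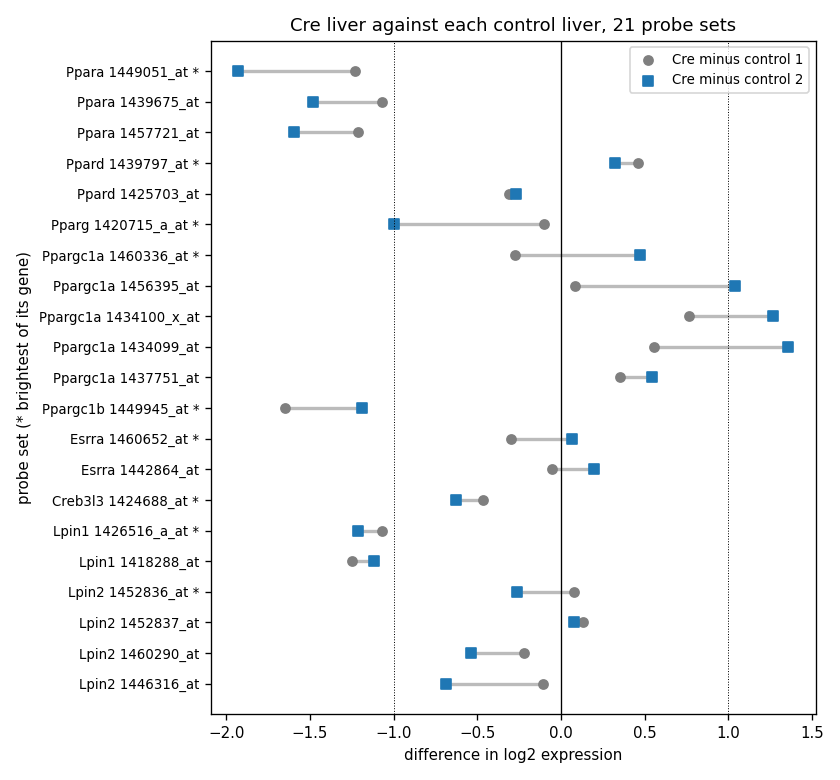
Difference in log2 expression between the Cre liver and control 1 (circles) or control 2 (squares) for each of the 21 probe sets (vertical axis), with dotted lines at 1 log2 unit either way. All probe sets of Ppara, Ppargc1b and Lpin1 lie left of -1 against both controls, and 4 of the 5 for Ppargc1a lie right of 0 against both.

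The partners and coregulators of PPARs showed no called change. Of 16 fitted genes none rose or fell by limma's adjusted p, where 5 higher and 1 lower had an unadjusted p under 0.05. Over all fitted genes, against which the counts of each list are set, 6.71% rose and 5.21% fell, and 20.4% higher and 10.8% lower had an unadjusted p under 0.05. The median difference of the partners was 0.24 beside 0.09 over all fitted genes, and 0.13 with probe sets averaged or 0.14 without shared or mixed ones. Rxra, the main heterodimer partner in liver, was at 9.17 and 9.15 in the control livers and 8.58 in the Cre liver, below both (-0.58 ± 0.12 SE, adjusted p = 0.0564; under 0.05 in 2 of 8 other settings). Nrip1, a corepressor (0.76 ± 0.15 SE, adjusted p = 0.0534), and Kat2a, an acetyltransferase that acts on PGC-1alpha (0.74 ± 0.15 SE, adjusted p = 0.0535), were above both controls and passed in 4 and 3 of 8 other settings. As the mean of its probe sets Nrip1 differed by 0.25 (adjusted p = 0.303). The largest of the others was Prkaa1 at 0.73, and the coactivator genes Ncoa2 (-0.06), Ncoa3 (-0.03) and Pprc1 (0.07), the third PGC-1 relative, did not pass.

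Target genes of PPARalpha were mostly higher in the liver in which Ppara itself read lower. Of 29 fitted targets 16 rose and 1 fell (beside 6.71% and 5.21% of all fitted genes), with a median difference of 0.95. Acot3, a peroxisomal acyl-CoA thioesterase, was at 5.03 and 4.89 in the control livers and 9.13 in the Cre liver, and Acot2, a mitochondrial one, at 6.91 and 7.32 against 10.01 (2.89 ± 0.22 SE). The values of Acot1 and of Cyp4a14, a fatty acid omega-hydroxylase, were less even in the controls (6.82 and 7.95 against 10.73, and 7.57 and 8.58 against 11.17). Pdk4, which restrains pyruvate oxidation, was at 5.42 and 6.03 against 9.63. Ehhadh, the bifunctional enzyme of peroxisomal beta-oxidation, was at 10.43 and 10.40 against 13.04 (2.63 ± 0.10 SE). In each of these 6 genes the Cre value was above both controls by more than 2 log2 units.

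Of the other genes of beta-oxidation, some rose by less and some did not pass. Decr1 (1.44 ± 0.14 SE), Ech1 (1.31 ± 0.14 SE), Hadha (1.10 ± 0.18 SE), Cpt2 (1.03 ± 0.13 SE), Hadhb (0.95), Acadl (0.93), Eci2 (0.90) and Acadvl (0.78) rose, whereas Cpt1a, the entry step, was at 10.10 and 10.53 in the control livers and 10.03 in the Cre liver (-0.28 ± 0.21 SE, adjusted p = 0.422). Acadm (0.71, adjusted p = 0.0541), Crat (0.60), Slc25a20 (0.42), Acaa1b (0.41), Acaa1a (0.38) and Hsd17b4 (-0.04), of the same pathways, did not pass either. The peroxisome gene Pex11a (1.73 ± 0.31 SE) and Vnn1, a pantetheinase (1.74 ± 0.25 SE), rose too. Plin2, a lipid droplet coat protein (1.68 ± 0.38 SE), the hormone gene Fgf21 (4.07 and 4.70 against 5.83) and Angptl4 (0.16) did not pass. Fabp1, the liver fatty acid binding protein, was the 1 target that fell (13.98 and 14.22 against 12.59). Of the 17 calls, 8 also passed in each of the other settings in which the gene was fitted, Fabp1 among them, and the count of rises ranged from 11 to 20.

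The control livers already differed in these genes. Of the 29 targets 25 were higher in control 2 than in control 1 (86.2%, beside 52.5% of all fitted genes), by a median of 0.26 beside 0.01. Control 2 was also the control with more Ppara at each probe set, and the Cre liver had the least Ppara and, for 24 of the 29 targets, the highest value of the 3 (beside 49.7% of all fitted genes). Kupffer cell and macrophage markers had a like order, with 8 of 10 higher in control 2 than in control 1 (median gap 0.52) and 9 of 10 highest in the Cre liver, and their part in the targets' values was not tested. The targets' median difference was between 0.78 and 1.10 over the alternatives run, either control left out included.

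**Figure D4:**
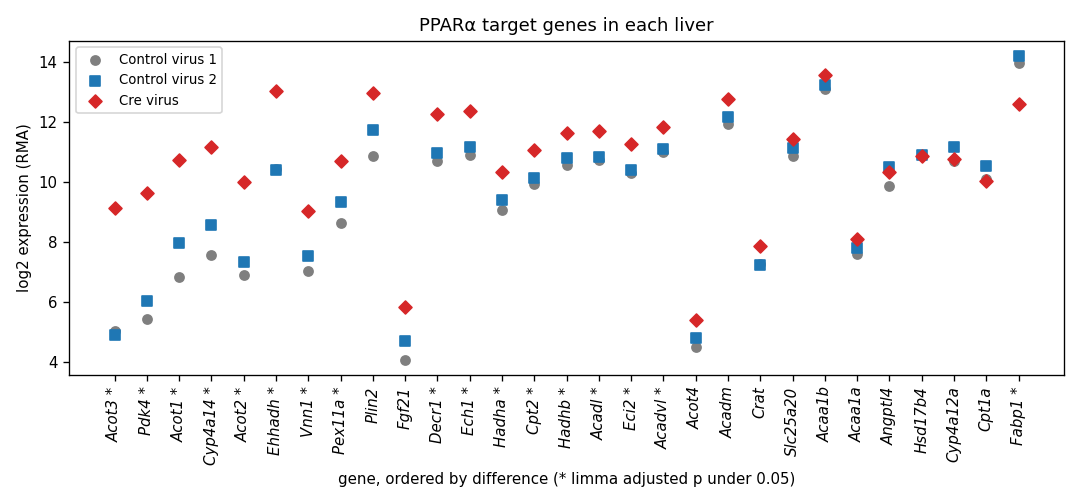
Log2 expression (vertical axis) of 29 PPARα target genes (horizontal axis, ordered by difference; an asterisk marks a limma adjusted p under 0.05) in control 1 (circles), control 2 (squares) and the Cre liver (diamonds). The diamonds lie above both controls for 24 of the 29 genes, and Fabp1, at the right end, lies below both.

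Fat storage genes linked to PPARgamma were split while Pparg did not pass. Of 8 fitted genes 3 rose and 1 fell (beside 6.71% and 5.21%), with a median of 0.43. Cd36, a fatty acid transporter, was at 6.46 and 7.30 in the control livers and 9.31 in the Cre liver (2.43 ± 0.38 SE), Lpl, the lipoprotein lipase gene, at 7.86 and 7.68 against 9.55 (1.79 ± 0.15 SE), and Mogat1, a monoacylglycerol acyltransferase, at 4.01 and 4.28 against 5.57 (1.43 ± 0.20 SE). Fitm1 fell (8.17 and 8.95 against 5.91). Cidea, Cidec and Adipoq were too dim to be fitted in all 3 livers, and Fabp4 (0.38) and Plin4 (-0.27) did not pass. The list median without the filter was 0.22, and 0.96 over single probe sets.

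Macrophages also express Cd36 and Lpl. Of 10 fitted Kupffer cell and macrophage markers 9 were above both controls (beside 49.7% of all fitted genes) and 1 passed (Marco, 1.88 ± 0.16 SE), with a median of 0.70 and a summed linear signal of 1103 and 1744 in the control livers and 2195 in the Cre liver. Their part in these rises was not tested. Markers of endothelial (median 0.26, none of 7 passed limma's adjusted p and 2 had an unadjusted p under 0.05) and stellate cells (0.20, none of 8 and 0) and of lymphocytes (0.03, none of 4 and 1) had smaller medians. Of 7 adipocyte markers, which bear on Pparg, Adipoq, Lep and Cidec were too dim to be fitted, at 3.29 or less on each array, and Retn and Fabp4, the only fitted ones, did not pass (summed linear signal 137 and 124 in the control livers and 155 in the Cre liver). Of the 2 fitted cholangiocyte markers Sox9 rose (3.87 and 4.82 against 6.69) and Epcam did not pass (4.28 and 4.32 against 4.58). Krt7, Krt19 and Cftr had means below the filter value. Of 3 neutrophil and 2 skeletal muscle markers none passed or had an unadjusted p under 0.05 by limma.

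The mitochondrial genes under ERRalpha and the PGC-1 coactivators had a median near that of all genes. Of 25 fitted genes 1 rose and none fell by limma (beside 6.71% and 5.21%; 5 higher and 0 lower at an unadjusted p under 0.05), with a median of 0.10 beside 0.09. The riser was Esrrg, an estrogen-related receptor itself (4.34 and 4.28 against 5.73; 0.71 as the mean of its probe sets, where it did not pass, adjusted p = 0.0607). Cs, the citrate synthase gene, was above both controls without passing (0.88 ± 0.20 SE, adjusted p = 0.0712), and Nrf1 (0.42), Ndufs1 (0.30), Tfam (0.03), Cycs (0.15), Cox4i1 (0.15) and Atp5b (0.10) did not pass.

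Of the gluconeogenic and heme targets and partners listed with PGC-1alpha, some were lower, though not the heme synthesis gene. Of 9 fitted genes 5 fell and none rose by limma (beside 5.21% and 6.71%; 2 were higher at an unadjusted p under 0.05), with a median of -0.73. Pcx, pyruvate carboxylase, was at 10.87 and 10.84 in the control livers and 8.91 in the Cre liver, and Tat, tyrosine aminotransferase, at 12.56 and 12.57 against 11.55. Foxo1, a partner of PGC-1alpha (-0.86 ± 0.16 SE), G6pc (-0.82 ± 0.11 SE) and Pck1 (-0.73 ± 0.09 SE) fell as well, while Creb1 (0.41), Fbp1 (0.23), Alas1 (0.03), the heme synthesis gene, and Crtc2 (-0.54) did not pass. Without the intensity trend 2 genes of the list fell and without shared or mixed probe sets 3; Foxo1 was the least stable, with an adjusted p of up to 0.209.

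Target genes of CREB3L3 were mostly lower. Of 10 fitted genes 7 fell and none rose by limma (beside 5.21% and 6.71%; 1 was higher at an unadjusted p under 0.05), with a median of -0.97. Apoa4 was at 12.27 and 11.30 in the control livers and 6.67 in the Cre liver, and Apoc2, the activator of lipoprotein lipase, at 11.46 and 11.20 against 7.88 (-3.45 ± 0.15 SE). Apoc3 (14.13 and 14.21 against 11.87) and the pentraxin genes Crp (12.15 and 12.14 against 10.10) and Apcs (10.22 and 10.55 against 9.26) fell too, and Pck1 and G6pc are in this list as well as among the PGC-1alpha genes. Apoa5 (0.11), Hamp, which encodes hepcidin (0.68), and Fgf21, shared with the PPARalpha list, did not pass. Without the intensity trend 4 genes of the list fell. A further list of 6 fitted genes held relatives of CREB3L3, proteases that release such factors, and Scap, which is neither. Of these 1 rose by limma, the site-2 protease gene Mbtps2 (6.81 and 6.83 against 7.70, adjusted p = 0.0332, and 0.0542 without the filter). Creb3, Creb3l1, Creb3l2, Mbtps1 and Scap (-0.14) did not pass.

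Among genes of glycerolipid synthesis around the lipins, 1 of 9 fell and none rose by limma (beside 5.21% and 6.71%; 1 was higher and 2 lower at an unadjusted p under 0.05). The median of 0.07 turned negative in 3 settings, after quantile normalization (-0.036), with probe sets averaged (-0.031) and without shared or mixed ones (-0.074). That gene was Agpat2, which makes phosphatidate, the lipin substrate (10.65 and 10.78 in the control livers and 9.22 in the Cre liver; -1.50 ± 0.12 SE, adjusted p = 0.00807). Dgat2, which uses the lipin product, was below both controls without passing (-0.51 ± 0.12 SE, adjusted p = 0.0785), and Agpat3 (0.19), Dgat1 (0.07), Gpam (0.32) and the lipin phosphatase genes Ctdnep1 (0.02) and Cnep1r1 (0.12) did not pass.

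**Figure D5:**
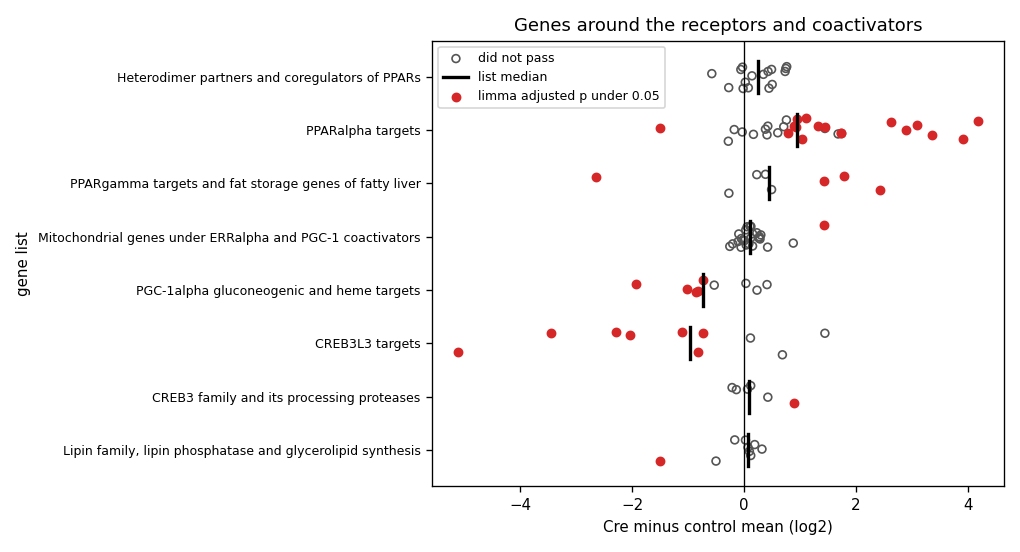
Difference between the Cre liver and the control mean (horizontal axis, log2) for the fitted genes of 8 gene lists (vertical axis); filled points passed limma's adjusted p of 0.05, open points did not, and black bars are list medians. PPARα targets lie mostly right of 0 with a median of 0.95, whereas the CREB3L3 and PGC-1alpha gluconeogenic lists lie mostly left of 0.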

How the data were processed

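Total RNA of 3 livers was isolated with Trizol and biotinylated in an in vitro transcription reaction, per the labels' protocols. The authors deposited log2 values per probe set, computed with RMA in Partek 6.5 according to the submitters' processing notes. No source used here names the log base, and base 2 follows from their range. RMA equalises the arrays and compresses differences near background, and the number of arrays limits the precision.

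Of 45101 probe sets, 34945 named 1 gene, 932 several and 9160 none, apart from 64 array controls. Of the first, 34741 matched RefSeq's table by Entrez ID and took its symbol. The brightest probe set stood for each gene, and 12735 genes entered the fit, those whose mean over the 3 arrays, Cre included, reached the 30th percentile (3.77). The comparison used limma 3.58.1 under R 4.3.3 (lmFit, eBayes with trend, 1 residual and 3.18 prior degrees of freedom) and was tested on simulated data. Figures were drawn with matplotlib 3.10.9. Control mice are biological replicates by their titles.

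The members and lists were chosen with earlier results of these data known; all members were named, and from each list the 4 genes with the largest absolute difference, called genes that describe it, and genes that did not pass. Some genes of the lists are not reported here, and the counts are over the fitted genes. The alternatives were other moderation, filters, scalings, thresholds and probe set rules, and each control left out.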

Additional observations from a re-analysis of the deposited data

How the results depend on the processing

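Without shared or mixed probe sets (suffixes _s_at, _x_at and _a_at, which can read more than 1 transcript), 471 genes rose, and without the filter 446 did, against 855; after quantile normalization 1007 fell against 663. At adjusted p thresholds of 0.1 and 0.01, 1780 and 92 genes rose and 1003 and 255 fell. Of the 9 members, 2 fell; 1 did without the intensity trend, without the filter or without shared or mixed probe sets, 4 after quantile normalization or at a threshold of 0.1, and 0 at 0.01. Their probe sets past the threshold were 3, but 1 without the trend and 0 without the filter. Counting any distance outside both controls gave 5 members below and 1 above. The sign reversed for Ppargc1a (-0.012 after quantile normalization) and for the median of the glycerolipid list (-0.036 after quantile normalization, -0.031 with probe sets averaged and -0.074 without shared or mixed ones); the causes were not tested. Leaving out a control also turned the sign of 3 members that did not pass, Ppargc1a (-0.27 without control 2), Esrra (0.06 without control 1) and Lpin2 (0.08 without control 2). Median centring put the median of all fitted genes at 0.10 and quantile normalization at 0.02, against 0.09, and the share of calls that were higher at 60.7% and 54.2%, against 56.3%. With a control left out, 1 array stood against 1 and no test was run. No paired analysis was possible because the Cre group holds 1 mouse. RMA values near background have only a compressed difference, which limits Ppard and Pparg. Single results were tracked over the settings for the members, Hnf4a, the list medians, the list genes that were called, and Rxra, Nrip1 and Kat2a. The other list genes that did not pass were not tracked, so calls gained among them are not counted. Of the tracked results, 479 kept their direction and side of the threshold or moved within the control spread, 29 lost their call, 14 gained one, 25 moved and 4 reversed. For a gene with a control left out, the shift is always smaller than the control spread used. Such results fell among the 479 by construction, unless a called gene changed sign, and say nothing of stability. The 3 members whose sign turned with a control left out are counted there too.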
